A study of Mus musculus with 11 samples.

Results

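The 8 genes described here are those by which pancreatic duct cells and simple epithelia are usually recognised: the keratins Krt7, Krt8, Krt18 and Krt19, the transcription factor Sox9, the secreted glycoprotein Spp1 (osteopontin), the chloride channel Cftr and the membrane mucin Muc1. They were chosen by name from 55401 counted genes, and all 8 passed the filter on low counts that left 17424 genes to be tested. The libraries are poly(A) RNA-seq of FACS fractions of dissociated islets, taken from chow-fed adult male C57BL6/J mice. There were 3 libraries of non-beta cells (mice 1 to 3), 4 labelled NNAT-positive beta cells and 4 labelled NNAT-negative beta cells (mice 1 to 4 for each), and the replicate number stands for 1 mouse.

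All animals, the source of the non-beta cells included, were 10 weeks old according to the labels and carried a rat insulin promoter (RIP)-Cre, a STOP-tdTomato reporter and an Nnat-EGFP reporter. Beta cells are thus cells in which the insulin promoter drove recombination, and the NNAT fractions follow EGFP from a transgene and not the endogenous protein. Total counts per library ran from 30420352 to 43238376 (n = 11). In each of the 4 mice, endogenous Nnat was higher in the NNAT-negative library than in the NNAT-positive one (66.5 to 153 against 46.1 to 101 CPM, the count scaled to library size), so the beta cell libraries are named by their labels and a swap would turn the sign of every difference between them. The sort was visible in the 8 beta cell markers, which summed to 182800 to 426900 CPM in the beta cell libraries and 10550 to 26020 CPM in the non-beta libraries. The non-beta fraction was a mixture. Its alpha, delta and PP cell markers summed to 132000 to 188400 CPM, its 17 acinar markers to 21850 to 83650 CPM, and its endothelial, macrophage and leukocyte, and stromal markers to 2526 to 2888, 1356 to 2987 and 3942 to 9014 CPM. In bulk RNA, fewer cells of a type and less RNA per cell cannot be told apart.

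Keratins are the intermediate filament proteins of epithelial cells. A filament forms from obligate pairs of a type I keratin (here Krt18 and Krt19) and a type II keratin (here Krt7 and Krt8). Krt8 and Krt18 are the usual pair of simple epithelia, whereas Krt7 and Krt19 are used in histology as duct markers. In the pancreas, Sox9 maintains duct and progenitor cells, Cftr passes chloride and bicarbonate into the duct lumen, Muc1 coats the apical membrane, and Spp1 is secreted by duct cells as well as by macrophages and other cells.

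Across the members, 2 patterns were seen. Spp1, Krt19, Muc1, Sox9 and Cftr were far higher in non-beta cells than in beta cells, by 8.50-fold (Spp1) to 60.6-fold (Muc1), with Cftr close to undetected in beta cells. Krt8, Krt18 and Krt7 were abundant in all 3 fractions, and Krt7 was nearly 2-fold higher in beta cells. With limits of 0.01 on the adjusted p and 2-fold on the change, 5 of the 8 members passed as higher in non-beta cells, where 18.9% of all tested genes did, and no member passed as higher in beta cells, where 6.22% did (edgeR quasi-likelihood test with mouse as a block, Benjamini-Hochberg adjustment over all tested genes). In the latter direction 1 member, Krt7, had an unadjusted p below 0.05, as did 4311 of the 17424 tested genes, and DESeq2 called no member. Of the 5 that passed, Cftr was kept by the low-count filter only through the non-beta libraries, so its direction was fixed by the filter. The 18.9% holds such genes as well. The median log2 difference of the 8 members was 3.50, against 0.10 over all tested genes. Between the 2 beta cell fractions, the same test called no member, and 0.0459% of all tested genes.

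**Figure D1:**
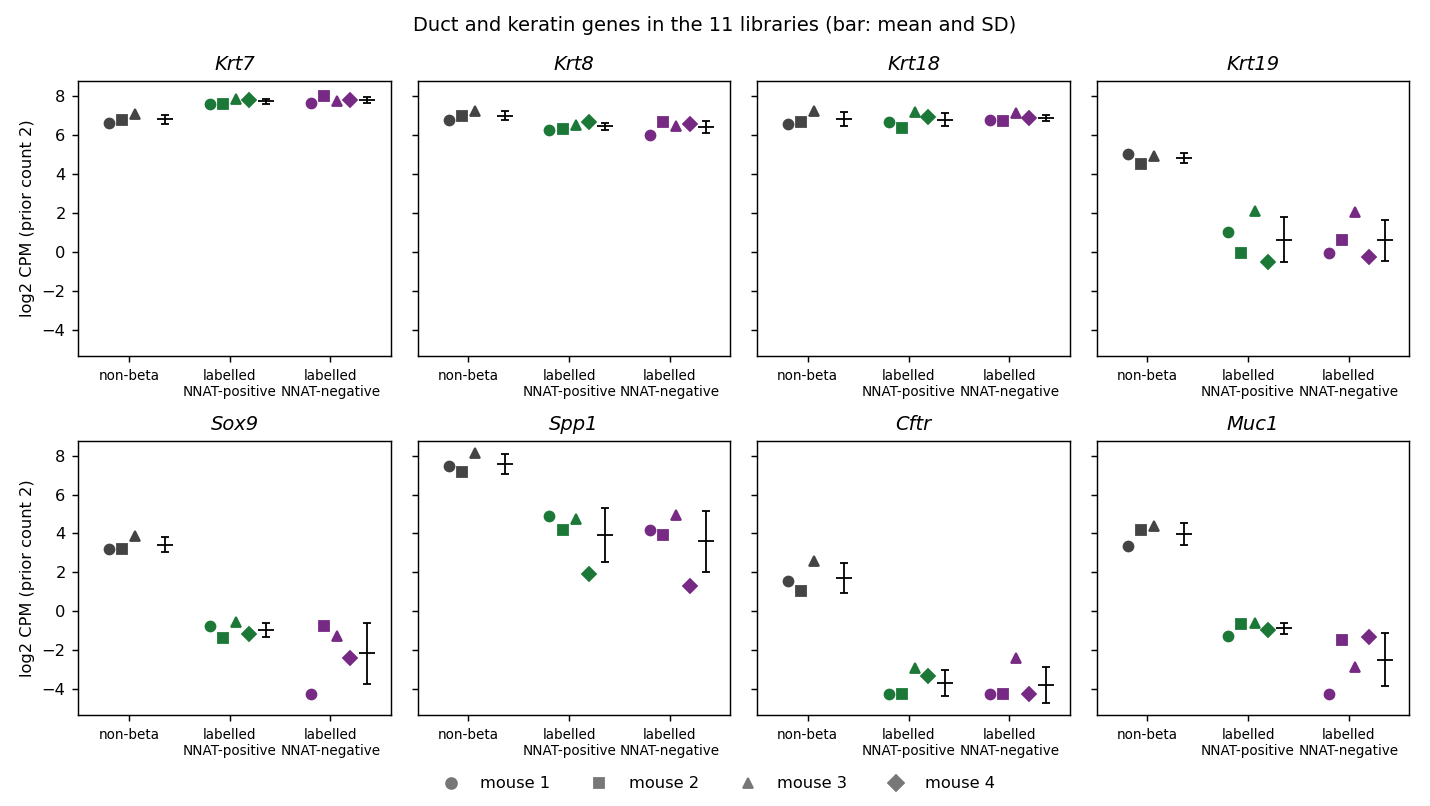
Each panel plots 1 gene as log2 CPM (vertical axis, prior count of 2) in the 11 libraries, grouped by fraction on the horizontal axis; marker shape gives the mouse, and the bar gives the mean and SD of the fraction. Krt7, Krt8 and Krt18 lie high in all 3 fractions, with Krt7 higher and Krt8 lower in every beta cell library than in every non-beta library. Krt19, Sox9, Spp1, Cftr and Muc1 lie far lower in every beta cell library than in every non-beta library.

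The keratin genes Krt7, Krt8 and Krt18 lie on chromosome 15 (GRCm38, GENCODE M21). Krt7 spans 101411043 to 101430313 on the plus strand, Krt8 101996698 to 102004482 on the minus strand and Krt18 102028180 to 102032027 on the plus strand. Krt8 and Krt18 are divergent neighbours, 23.7 kb apart with no protein-coding gene between them, although 1 encodes a type II and the other a type I keratin. The bases before their RefSeq starts (GRCm38.p6) are printed here because these 3 genes were expressed in every fraction, beside those of Spp1 and Muc1, which were low in beta cells. Each runs 5′ to 3′ in the direction of transcription and stops before the starts of both the RefSeq transcript and the longest coding transcript of GENCODE; shorter Krt7 transcripts of GENCODE begin further upstream. Capitals mark TATAAA and GGGCGG on either strand.
Krt7 (chr15:101412153-101412401, plus strand): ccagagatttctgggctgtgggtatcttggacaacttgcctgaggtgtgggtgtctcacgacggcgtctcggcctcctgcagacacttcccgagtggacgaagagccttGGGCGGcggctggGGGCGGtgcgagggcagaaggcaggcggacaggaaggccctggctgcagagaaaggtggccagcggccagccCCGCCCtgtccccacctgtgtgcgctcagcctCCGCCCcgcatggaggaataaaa
Krt8 (chr15:102004483-102004592, minus strand): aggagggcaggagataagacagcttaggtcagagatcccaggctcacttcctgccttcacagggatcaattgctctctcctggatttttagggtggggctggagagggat
Krt18 (chr15:102027966-102028179, plus strand): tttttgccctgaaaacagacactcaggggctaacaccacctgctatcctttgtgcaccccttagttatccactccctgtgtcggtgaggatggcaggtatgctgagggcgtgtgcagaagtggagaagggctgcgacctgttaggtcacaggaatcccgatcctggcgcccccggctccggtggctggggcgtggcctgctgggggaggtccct
Spp1 (chr5:104434861-104435110, plus strand): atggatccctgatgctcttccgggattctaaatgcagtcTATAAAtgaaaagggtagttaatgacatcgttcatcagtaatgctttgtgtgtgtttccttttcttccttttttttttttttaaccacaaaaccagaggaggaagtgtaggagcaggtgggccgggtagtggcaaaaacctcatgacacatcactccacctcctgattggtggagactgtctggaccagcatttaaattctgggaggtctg
Muc1 (chr3:89228806-89229055, plus strand): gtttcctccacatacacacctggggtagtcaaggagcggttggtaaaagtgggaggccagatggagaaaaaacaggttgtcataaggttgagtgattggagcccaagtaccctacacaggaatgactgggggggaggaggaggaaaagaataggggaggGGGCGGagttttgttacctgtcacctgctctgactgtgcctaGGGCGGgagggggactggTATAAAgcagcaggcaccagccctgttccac

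Motifs were counted on both strands, overlaps included, in the 300-base windows of the RefSeq table, from 250 bases before to 50 after the start. Krt7 held 4 GGGCGG and no TATAAA. Krt18 held neither motif. Krt8 held TATAAA only at its start, 3 bases before it and outside the printed bases, where both strands match in an overlapping pair. Muc1 held 2 GGGCGG and a TATAAA beginning 31 bases before the start, and the TATAAA of Spp1 began 211 bases before its start. The window of Cftr held 6 overlapping or separate GGGCGG and was the richest in G and C of the 6 found (76.4% of its 250 bases before the start, against 43.6% for Spp1). Of 32851 such windows, 13.6% held TATAAA and 35.7% held GGGCGG, so neither motif is particular to these genes. TGANTCA, the letters of an AP-1 site, was in none of the 6 windows and in 7.81% of all. Krt19 and Sox9 had no entry in the table.

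Krt7 was the member that went the other way. It stood at 97.4, 109 and 133 CPM in the non-beta libraries of mice 1, 2 and 3. The libraries labelled NNAT-positive stood at 195, 195, 229 and 224 CPM and those labelled NNAT-negative at 202, 258, 212 and 225 CPM (mice 1 to 4). Every beta cell library was above every non-beta library, as for 16.5% of all tested genes. The fitted difference was 0.93 on the log2 scale in favour of beta cells (log2 fold change -0.93, SE 0.10, 1.91-fold, adjusted p = 3.22e-05). It fell short of the 2-fold limit, and without the 3 libraries of mouse 3 it passed (log2 fold change -1.04, adjusted p = 0.000316). Within mice 1, 2 and 3, the log2 difference was -1.03, -1.04 and -0.73.

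Krt8, the other type II keratin, stood at 109, 124 and 149 CPM in the non-beta libraries. In the libraries labelled NNAT-positive it stood at 75.9, 78.4, 92.5 and 102 CPM, and in those labelled NNAT-negative at 63.4, 100.2, 87.4 and 93.1 CPM. The groups did not overlap, with non-beta cells higher, which held for 6 of the 8 members and for 26.2% of all tested genes. The log2 fold change was 0.62 (SE 0.10, 1.53-fold, adjusted p = 0.000441), higher in non-beta cells in 3 of 3 mice, and again below the 2-fold limit. The directions of Krt7 and Krt8 were the same under each scaling of the libraries that was tried, the median of all genes moving from 0.10 to 0.27 on the log2 scale when library totals were used with no scaling factor.

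Krt18, the type I partner of Krt8, stood at 93.6, 101 and 150.3 CPM in the non-beta libraries. The libraries labelled NNAT-positive stood at 103, 82.2, 145 and 122 CPM and those labelled NNAT-negative at 108, 106, 139 and 117 CPM. The 3 fractions overlapped, and the library of mouse 3 was the highest in each of them. The difference between non-beta and beta cells was 0.01 on the log2 scale (SE 0.09, adjusted p = 0.95), and its sign turned with the settings. Krt18 was the one of the 4 keratins whose non-beta and beta cell libraries overlapped.

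Krt19, the second type I keratin, separated the fractions. It stood at 32.6, 23.0 and 30.4 CPM in non-beta cells, against 1.94, 0.91, 4.24 and 0.64 CPM in the fraction labelled NNAT-positive and 0.92, 1.49, 4.05 and 0.77 CPM in those labelled NNAT-negative. The log2 fold change was 3.91 (SE 0.33, 15.0-fold, adjusted p = 4.15e-06). In beta cells both libraries of mouse 3 were above the other 6, which lay between 0.64 and 1.94 CPM. Counts behind these values were 27 to 162 per beta cell library, so Krt19 was low in beta cells but detected in 8 of 8.

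The level of 1 gene can be set against another only per base of transcript, so CPM was divided by the length of the longest coding transcript in kilobases (RPKM). In non-beta cells Spp1 had the highest mean (132 ± 47.9 RPKM, SD, n = 3), followed by Krt18 (80.0 ± 21.5), Krt8 (65.0 ± 10.3), Krt7 (27.6 ± 4.38), Krt19 (18.2 ± 3.20), Muc1 (7.30 ± 2.53), Sox9 (2.65 ± 0.74) and Cftr (0.57 ± 0.32). The ranges of Spp1 and Krt18 overlapped, as did those of Krt18 and Krt8. In the libraries labelled NNAT-positive the order was Krt18 (78.7 ± 18.6 RPKM, n = 4), Krt7 (51.5 ± 4.44), Krt8 (44.5 ± 6.28), Spp1 (12.9 ± 7.70) and Krt19 (1.23 ± 1.04), with Muc1, Sox9 and Cftr below 0.27 in each library. The libraries labelled NNAT-negative gave the same order. The ranges of Krt7 and Krt8 overlapped in both, and their order in beta cells turned when the 7049 bases of all annotated Krt7 exons were used in place of the 4094 of its longest coding transcript (29.9 and 31.8 RPKM for Krt7 against 44.5 and 43.9 for Krt8 in the fractions labelled positive and negative).

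The composition of the simple epithelial keratins thus differed between fractions, while the ranges of their sum overlapped, at 191 ± 36.1 RPKM in non-beta cells (n = 3) and 179 ± 21.8 RPKM over the 8 beta cell libraries. The ratio of Krt7 to Krt8 was 0.43, 0.42 and 0.42 in the non-beta libraries of mice 1, 2 and 3, and ran from 1.05 to 1.52 in the 8 beta cell libraries. A comparison of this ratio between fractions does not depend on the transcript length assumed. Krt19 made up 8.31% to 12.5% of the summed RPKM of the 4 keratins in non-beta cells and 0.211% to 1.31% in beta cells, while Krt18 made up 39.4% to 45.0% and 39.0% to 49.3%. The ratio of type II to type I keratin was 0.876 to 1.06 in non-beta cells and 0.975 to 1.53 in beta cells, and these ranges overlapped. Unlike the comparison of Krt7 to Krt8, this ratio, the summed RPKM and the percentages do depend on the transcript lengths assumed.

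**Figure D2:**
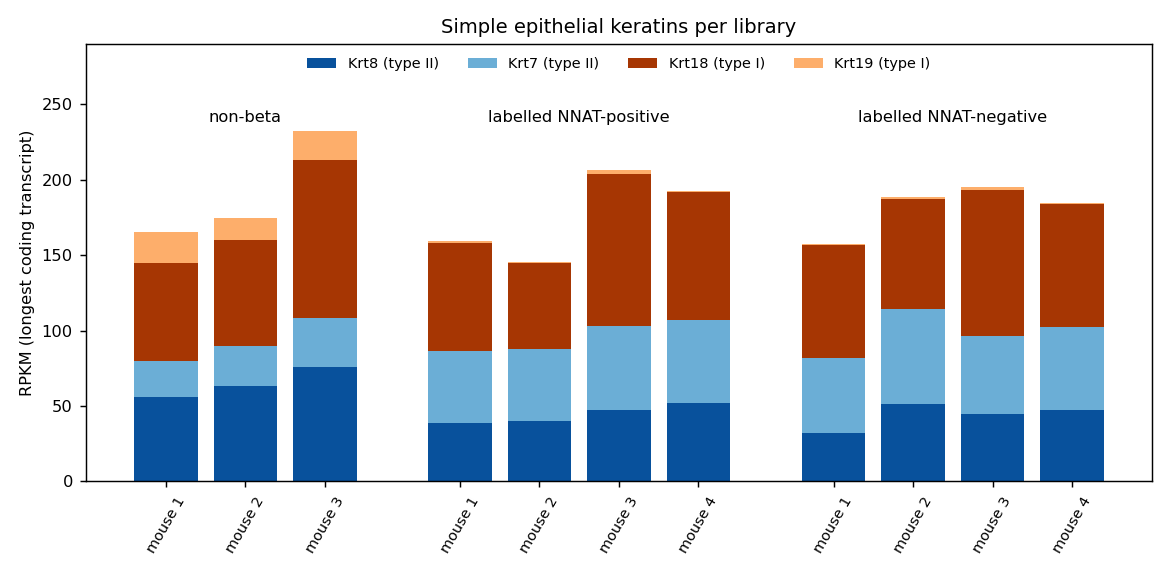
Stacked bars show the RPKM of Krt8, Krt7 (type II, blue), Krt18 and Krt19 (type I, orange) in each of the 11 libraries, with the mice along the horizontal axis and RPKM on the vertical axis. Krt7 is the wider blue band in beta cells (47.7 to 62.9 RPKM) and the narrower one in non-beta cells (23.8 to 32.4 RPKM), and the Krt19 band is hardly visible outside the non-beta libraries.

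Spp1 was the most abundant duct gene of the 8 in non-beta cells. It stood at 175, 141 and 279 CPM there, at 29.7, 18.0, 26.5 and 3.75 CPM in the fraction labelled NNAT-positive and at 18.3, 15.4, 30.5 and 2.43 CPM in those labelled NNAT-negative. No beta cell library reached a non-beta library, and the 2 beta cell libraries of mouse 4 were the lowest of all. The log2 fold change was 3.09 (SE 0.13, 8.50-fold, adjusted p = 4.45e-08). Mouse 4 had no non-beta library. Its macrophage and leukocyte markers summed to 50.2 and 57.2 CPM in the beta cell libraries. This was within or next to the 51.3 to 93.9 CPM of the other mice. C1qa carried 89.5% of this sum over the 8 beta cell libraries, so the sum says little about the other 10 genes. The 20 other duct genes of mouse 4 summed to the lowest value of each beta cell fraction. They stood at 366 CPM against 371 to 445 CPM (labelled NNAT-positive) and at 289 CPM against 312 to 364 CPM (labelled NNAT-negative). Krt19 was also lowest in mouse 4 within each fraction, at 0.64 and 0.77 CPM. The beta cell markers of mouse 4 summed to 182800 and 181600 CPM, the lowest of the beta cell libraries. The cause of its low Spp1 was not tested.

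Muc1 stood at 10.0, 18.1 and 21 CPM in non-beta cells, with 464 to 781 counts. It stood at 0.37, 0.58, 0.60 and 0.46 CPM (13 to 24 counts) in the libraries labelled NNAT-positive and at 0, 0.30, 0.083 and 0.36 CPM (0 to 13 counts) in those labelled NNAT-negative. The log2 fold change between non-beta and beta cells was 5.92 (SE 0.48, 60.6-fold, adjusted p = 3.18e-06). The 0 of mouse 1 allows up to 0.102 CPM, the level of 3 counts in that library; such floors cover counting error only.

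Sox9 stood at 9.17, 9.20 and 14.5 CPM in non-beta cells. It stood at 0.53, 0.34, 0.63 and 0.39 CPM in the fraction labelled NNAT-positive and at 0, 0.55, 0.36 and 0.14 CPM in those labelled NNAT-negative, where mouse 1 had 0 counts of 30420352. The log2 fold change was 4.85 (SE 0.59, 28.8-fold, adjusted p = 6.38e-05), with all 3 mice in the same direction.

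Cftr was the least abundant member. It had 134, 77 and 219 counts in the non-beta libraries (2.90, 2.04 and 5.89 CPM), and 10 counts in the 8 beta cell libraries together, of which 5 libraries had 0. The share of counts was 113 times higher in non-beta cells when counts were pooled (95% exact interval 60.7 to 237, counting error only). The test across mice passed (adjusted p = 0.000153), but without mouse 3, whose libraries held 8 of the 10 beta cell counts, the adjusted p was 0.0119 and the gene no longer passed. The difference was not smaller in that setting (log2 fold change 10.0, SE 1.88, against 7.32, SE 1.01), and the pooled ratio was 297 (95% exact interval 81.1 to 2470, on 2 beta cell counts). Krt7 then took its place among the 5 that passed.

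**Figure D3:**
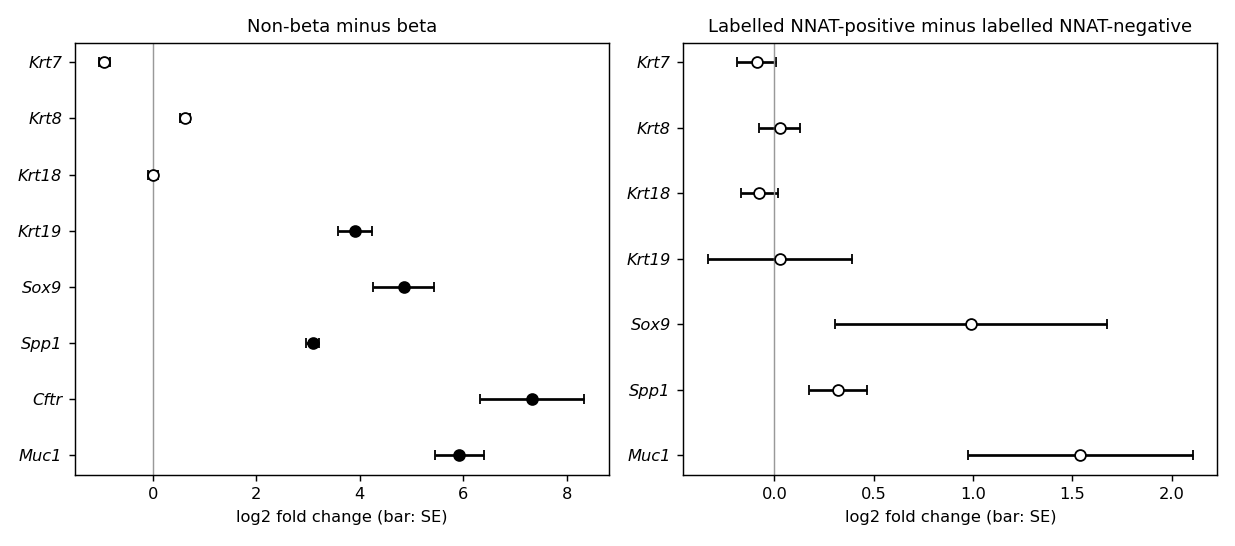
Points give the log2 fold change of each member on the horizontal axis and bars its SE, for non-beta minus beta cells (left) and for the labelled positive minus the labelled negative libraries (right, on its own scale and without Cftr, which was at or under 3 counts in most of those libraries). Filled points passed both limits, an adjusted p of 0.01 and a change of 2-fold; 5 on the left are filled and none on the right.

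Setting each beta cell library against the non-beta library of the same mouse (mice 1 to 3, 6 libraries) placed the members among markers of other cells. Krt7 ran from 160% to 236% of the non-beta level, Krt18 from 81.5% to 116% and Krt8 from 57.9% to 81.1%. Spp1 ran from 9.48% to 16.9% and Krt19 from 2.82% to 13.9%. Sox9 ran from 0% to 5.96%, Muc1 from 0% to 3.64% and Cftr from 0% to 2.36%. In the same libraries the 17 acinar markers, all of them tested and all higher in non-beta cells, stood at 0.19% to 3.64% of the non-beta sum. The endothelial markers stood at 0.00565% to 0.439%, the stromal markers at 0.00154% to 0.069%, and the macrophage and leukocyte markers at 2.21% to 5.82%. C1qa carried 89.5% of the macrophage and leukocyte sum in beta cells, and the other 10 genes stood at 0.00486% to 0.79%. Alpha, delta and PP markers stood at 1.48% to 4.78%, with Gcg (glucagon) at 0.624% to 2.94% and Sst (somatostatin) at 6.38% to 28.7%. Gcg carried 49% of the alpha, delta and PP sum in beta cells, and the other 9 genes stood at 6.84% to 21.8%. The 20 other duct genes stood at 23.7% to 36.7% as a sum. Clu carried 34.2% of that sum in beta cells, and the other 19 genes stood at 26.8% to 42.5%. Single genes differed widely, as Prom1 was higher in beta cells while Aqp1 and Anxa3 were close to undetected there. The share of Spp1 thus lay above the acinar, endothelial, stromal, and macrophage and leukocyte sums and overlapped the alpha, delta and PP genes other than Gcg; the part of carried-over RNA in it was not tested. The library labelled NNAT-positive from mouse 2 held the most acinar RNA of the beta cell libraries (3043 CPM against 18.4 to 638 CPM in the other 7); without it, 5 members again passed.

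**Figure D4:**
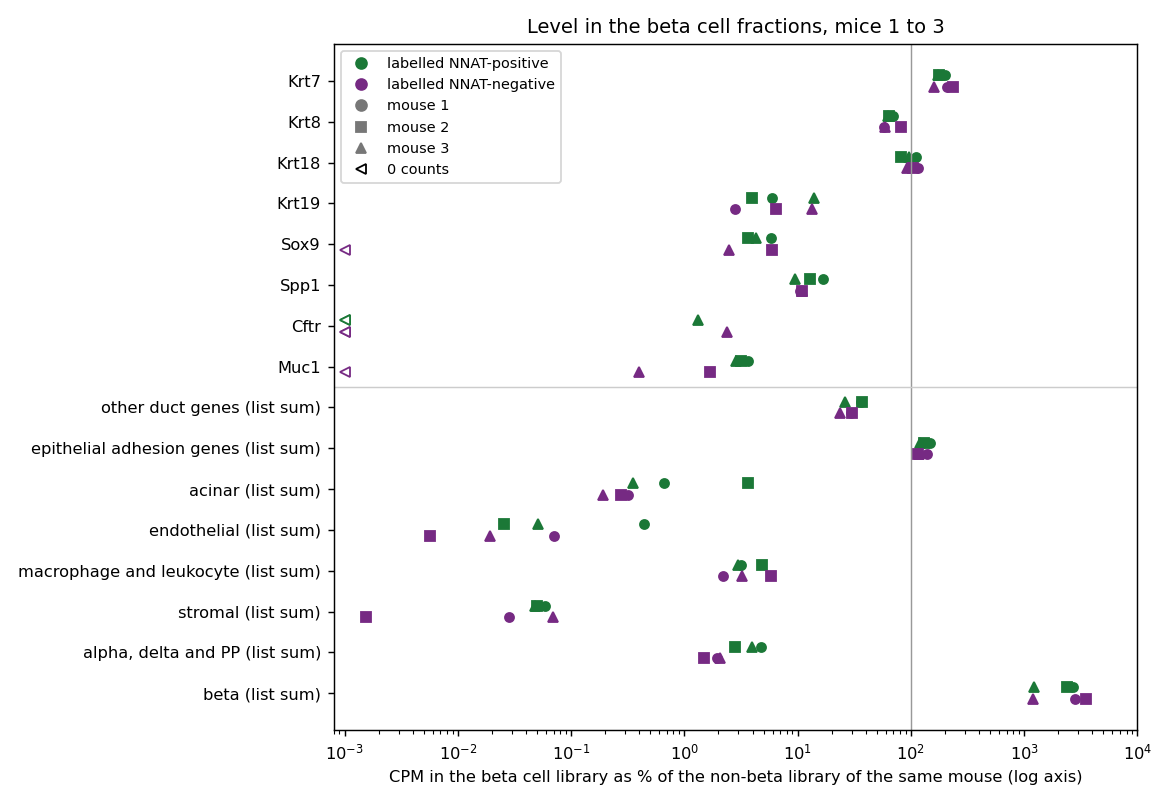
The horizontal log axis gives the CPM of a beta cell library as a percentage of the non-beta library of the same mouse, for the 8 members (top) and for the summed CPM of 8 gene lists (bottom); colour gives the fraction, shape the mouse, and open triangles at the left edge libraries with 0 counts. Krt7 lies right of the 100% line in all 6 libraries, Spp1 lies between 9.48% and 16.9%, and the acinar sum lies at or below 3.64%.

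Other genes in use as duct markers were mostly higher in non-beta cells, like Spp1 and Krt19. Of 20 listed genes, 17 were tested and 14 passed as higher in non-beta cells, where 18.9% of all tested genes did. Some of the 14, among them Aqp1, Anxa3, Car2 and Lcn2, were kept by the low-count filter only through the non-beta libraries. Their direction was thus fixed by the filter, and the 18.9% holds such genes as well. The median log2 fold change of the list was 2.34, against 0.10 over all tested genes. Tff1 and Muc6, mucus proteins of large ducts and stomach, had 0 counts in all 11 libraries. Of the 5 with the highest mean CPM in non-beta cells, Clu (clusterin, a secreted chaperone) stood at 534 ± 87.8 CPM in non-beta cells and 127 ± 29.8 and 118 ± 35.5 CPM in the beta cell fractions labelled positive and negative (log2 fold change 1.96, SE 0.10, adjusted p = 1.29e-07). Tff2, a trefoil peptide, stood at 133 ± 80.0 CPM against 1.64 ± 2.48 and 1.21 ± 0.72 CPM. Its log2 differences, labelled positive minus labelled negative, were 0.10, 1.83, -0.19 and -5.35 in mice 1 to 4. The acinar sum was higher on the labelled positive side in mice 1 to 3 and lower in mouse 4 (18.4 against 638 CPM). The part of acinar RNA in Tff2 was not tested. Aqp1, a water channel that endothelial cells also carry, stood at 104 ± 17.5 CPM against 0.059 ± 0.080 and 0.048 ± 0.080 CPM. Bicc1, an RNA-binding protein of tubular epithelia, stood at 95.7 ± 17.2 CPM against 35.0 ± 6.11 and 30.02 ± 4.00 CPM, and Tspan8, a tetraspanin, at 64.7 ± 13.7 CPM against 16.9 ± 0.61 and 8.04 ± 2.14 CPM. Among the 3 tested genes that did not pass were Dcdc2a and Prom1, named after their values were seen. Dcdc2a, a microtubule-binding protein of cilia, stood at 23.9 ± 8.06 CPM in non-beta cells and 28.2 ± 6.18 and 25.7 ± 2.36 CPM in beta cells. Prom1, the membrane glycoprotein CD133, was lower in non-beta cells (52.2 ± 9.09 against 112 ± 17.2 and 87.4 ± 11.9 CPM, log2 fold change -0.88, adjusted p = 6.17e-06), short of the 2-fold limit.

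The list of epithelial adhesion genes holds the junction proteins, among them those of the desmosomes to which keratin filaments attach, and 5 regulators of the epithelial state (Esrp1, Esrp2, Grhl2, Elf3 and Ehf). Its genes did not separate the fractions in 1 direction. Of the 18, all tested, 3 passed as higher in non-beta cells (the junction gene Jup and the regulators Ehf and Grhl2). Grhl2 was kept by the low-count filter only through the non-beta libraries. Another 4 passed as higher in beta cells (the junction genes Cdh1, Dsp and Dsc2 and the regulator Esrp1), and 11 did not pass. Of all tested genes, 18.9% passed as higher in non-beta cells and 6.22% as higher in beta cells. The median log2 fold change of the list was -0.52. Ehf, Grhl2, Dsc2 and Esrp1 are named after their values were seen. Cdh1 (E-cadherin) stood at 235 ± 48.2 CPM in non-beta cells and at 460 ± 63.1 and 451 ± 58.2 CPM in beta cells (log2 fold change -1.06, SE 0.11, adjusted p = 1.92e-05). Dsp (desmoplakin, which ties keratin filaments to the desmosome) stood at 118 ± 27.7 CPM against 231 ± 35.0 and 208 ± 41.6 CPM (log2 fold change -1.01, SE 0.11, adjusted p = 2.94e-05). Jup (plakoglobin) went the other way, at 180 ± 8.41 CPM against 60.6 ± 9.52 and 45.8 ± 7.60 CPM (log2 fold change 1.69, SE 0.08, adjusted p = 1.25e-07). Epcam and the tight junction scaffold Tjp1 did not pass, at 178 ± 36.8 against 146 ± 18.4 and 129 ± 9.78 CPM and at 124 ± 7.55 against 192 ± 16.4 and 168 ± 20.3 CPM.

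The remaining keratin family was near silent. Of 50 other keratin genes, 25 had 0 counts in all 11 libraries and 9 were tested. Of these 9, 3 passed as higher in non-beta cells, where 18.9% of all tested genes did. Among the 3, Krt23 and Krt90 were kept by the low-count filter only because of the non-beta libraries, which fixed their direction. The summed level of the 50 was 36.7 to 41.0 CPM in non-beta cells and 18.9 to 35.6 CPM in the 8 beta cell libraries. Krt80, Krt10 and Krt222 stood at 8.85 ± 3.29, 7.59 ± 2.24 and 6.69 ± 1.54 CPM in non-beta cells and did not pass. Krt1, best known from the epidermis, stood at 5.71 ± 0.92 CPM against 2.10 ± 0.44 and 2.13 ± 1.40 CPM (log2 fold change 1.55, SE 0.39, adjusted p = 0.00647). Krt23, a type I keratin of simple epithelia, stood at 5.26 ± 2.06 CPM against 0 in each library labelled NNAT-positive and 0.035 ± 0.069 CPM in those labelled NNAT-negative (adjusted p = 0.000229).

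The comparison of the beta cell fractions asked whether the members differ with the sorted reporter. By edgeR none of the 8 passed, 1 had an unadjusted p below 0.05 (Muc1), and DESeq2 called none either. At that unadjusted limit, 839 of the 17424 tested genes were higher on the labelled positive side and 130 were lower. For the 3 abundant keratins the log2 difference, labelled positive minus labelled negative, was -0.09 for Krt7 (SE 0.10, adjusted p = 0.957), 0.03 for Krt8 (SE 0.10, adjusted p = 1) and -0.08 for Krt18 (SE 0.09, adjusted p = 0.961). The SE of these 3 values puts a difference of 1 log2 unit far outside their error. Krt19 was likewise at 0.03, with a larger SE of 0.36.

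Muc1 was the exception in its values, though not in its test. Each library labelled NNAT-positive (0.37 to 0.60 CPM) was above each library labelled NNAT-negative (0 to 0.36 CPM), as for 1.72% of all tested genes. The lowest of the former (mouse 1, 0.365 CPM) and the highest of the latter (mouse 4, 0.355 CPM) both held 13 counts. Their order thus rests on the scaling factors of these libraries (0.951 and 1.13). Within mice, Muc1 was higher on the labelled positive side in 4 of 4. The log2 fold change was 1.54 (SE 0.57, unadjusted p = 0.0220, adjusted p = 0.776), on at most 24 counts per library, and ran from 1.15 to 2.04 when a mouse was left out. Sox9 was higher in 3 of 4 mice (log2 fold change 0.99, SE 0.68, adjusted p = 0.910), with 0.43 without mouse 1, whose library labelled NNAT-negative had 0 counts, and 1.74 without mouse 2. Spp1 was higher in 3 of 4 (log2 fold change 0.32, SE 0.15, adjusted p = 0.886). Tspan8 had the lowest adjusted p of the 5 named duct genes, higher on the labelled positive side in all 4 mice (log2 fold change 1.10, SE 0.16, adjusted p = 0.0428), short of the 0.01 limit. The alpha, delta and PP marker sum was also higher in the libraries labelled NNAT-positive, at 4809 to 6607 CPM against 2501 to 3434 CPM. Of its genes, 10 of 10 were of positive sign and 3 passed, where 0.0459% of all tested genes did. All 8 genes called in this comparison were higher on the labelled positive side, and the median log2 fold change over all tested genes was 0.05. A tilt to that side was thus not particular to this list or to the members. The part of this marker sum in the values of Muc1, Sox9 and Tspan8 was not tested.

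Some reads may be shared between genes. In GENCODE M21 the exons of Krt7, Krt8 and Cftr share 77, 101 and 129 bases with a gene on the opposite strand, and 309 exonic bases of Spp1 (18.8%) lie in Gm42793, a gene model on the same strand. Whether the counting used strand is not given in the sources used here. Krt18, Krt19, Sox9 and Muc1 share no exonic base with another gene. Krt19 and Sox9 lie on chromosome 11 (100140810 to 100148665, minus strand, and 112782224 to 112787760, plus strand), Spp1 on chromosome 5 (104435118 to 104441050), Cftr on chromosome 6 (18170687 to 18322768) and Muc1 on chromosome 3 (89229057 to 89233381), the last 3 on the plus strand.

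After each fraction's mean was subtracted, the genes whose log2 CPM followed a member most closely over the 11 libraries were named by Pearson's r, as a description. For Krt8 they were Znhit1 (r = 0.945), Gm45053 (0.929) and Fbl (0.928), for Krt7 Rasgef1a (0.940), Ndufs3 (0.919) and 5830448L01Rik (0.917), and for Krt18 Trabd (0.95), Tsta3 (0.920) and Tars (0.918). For Spp1 they were Mettl9 (0.984), 2610001J05Rik (0.980) and Rhou (0.979), and for Krt19 they included Vcp (0.947) and Lamb2 (0.936). For Sox9 they were Parp14 (0.982), Slc35f6 (0.963) and Lmo3 (0.963), for Muc1 Cage1 (0.959), BC002059 (0.951) and Katnal1 (0.937), and for Cftr Vill (0.939), Ibtk (0.911) and Agap2 (0.900). None of these genes was another member or a gene of the lists used here. The libraries share mice and depth, and each r is among the highest 3 over 17424 genes. For Cftr, Sox9 and Muc1 it rests on few beta cell counts. Between members, the highest r was 0.869, for Krt7 and Krt8. It was 0.83 for Krt18 and Cftr and 0.569 for Krt8 and Krt18.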

How the data were processed

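RNA of FACS-sorted islet cells from individual mice was sequenced as 2×75 bp poly(A) libraries. Per the labels and the study's methods, STAR 2.7.1a was used by the authors for alignment to mm10, and raw counts per gene on GENCODE vM25 were deposited; replicates were not pooled. From these counts, 11 libraries (30420352 to 43238376 counts each) were fitted together in edgeR 4.0.16 (R 4.3.3) with TMM scaling, filterByExpr by fraction and mouse as a block. Non-beta cells were compared with the mean of the beta cell fractions, and the beta cell fractions with each other; a call needed an adjusted p under 0.01 (Benjamini-Hochberg, over all tested genes) and over 2-fold change. CPM used TMM-scaled library sizes, log2 CPM a prior count of 2, and RPKM, coordinates and overlaps GENCODE M21, so lengths may differ from vM25. Promoter windows came from RefSeq (6 of 8 members matched). The scripts were tested on simulated data. Same-mouse beta cell libraries deviated together from their fraction means (4 pairs, correlation 0.182 to 0.658), which with the mouse numbers supports the block. The 12 pairs of different mice had correlations of -0.322 to 0.0931. Subtracting the fraction means pushes these toward negative values when same-mouse pairs are positive, so they add no separate support. Named genes were all members, the 5 with the highest mean CPM in non-beta cells of each of 3 lists (other duct genes, epithelial adhesion genes, other keratins), and the 3 genes closest to each member; some genes of this rule are not reported here. Members and lists were chosen with earlier results of these data known. Alternatives were RLE scaling, no filter, no block, DESeq2 1.42.0, another call rule, the beta cell libraries alone and each mouse left out.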

Additional observations from a re-analysis of the deposited data

Results flagged for a closer look

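Cftr in the library labelled NNAT-negative from mouse 3 stood apart from the other 3 libraries of its fraction, at a log2 CPM of -2.38 against -4.24 in each of the others. The library held 5 counts and the others 0, the value -4.24 being what the prior count of 2 gives to 0 counts. The gap was judged by Dixon's ratio in the 16 sets of 4 beta cell libraries (8 genes, 2 fractions), of which 1 was past the 95% limit. Chance alone marks about 1 set in 20 where values are not tied. Here the other 3 values were equal, which gives a ratio of 1 whatever the count above 0 in this library. The ratio therefore cannot measure how far this library lay from the others.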

How the results depend on the processing

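Without the mouse block, edgeR called 5 members between non-beta and beta cells and 0 between the beta cell fractions, as with it; the block changed the call of no member, while the genes called between the beta cell fractions went from 8 to 1. Over the other alternatives the first count ran from 5 to 7 (7 at an adjusted p below 0.05 with no fold limit, adding Krt7 and Krt8), from 5 to 5 when a mouse was left out, and the second stayed at 0. Without mouse 3 the 5 included Krt7 (log2 fold change -1.04) in place of Cftr (adjusted p = 0.0119); the smaller number of libraries is part of that setting. Of 80 refitted log2 fold changes between non-beta and beta cells 5 changed sign, all of Krt18: to -0.0040 without the block, to -0.050 without the library labelled NNAT-positive of mouse 2 (a setting added after seeing the data), and within -0.032 to 0.095 when a mouse was left out. Between the beta cell fractions 13 of 77 changed sign, none of a called gene. Krt8 went to -0.012 with RLE scaling, -0.0089 without the filter, -0.012 with DESeq2 and -0.0092 with the beta cell libraries alone, and Krt19 to -0.0094, -0.0063 and -0.014 in the first 3. Without the library labelled NNAT-positive of mouse 2, Krt18 went to 0.012 and Krt19 to 0.24. When a mouse was left out, Krt7 ran from -0.16 to 0.016, Krt8 from -0.050 to 0.16, Krt18 from -0.16 to 0.015 and Krt19 from -0.23 to 0.22. The genes called between the beta cell fractions (8) were 26 without the filter, 86 with DESeq2, 18 at an adjusted p below 0.05 with no fold limit, 3 without the library labelled NNAT-positive of mouse 2 and 0 to 5 when a mouse was left out (0 without mouse 3); the cause was not tested. Those between non-beta and beta cells (4377) were 9147 at an adjusted p below 0.05 with no fold limit. Plain library totals, also added after seeing the data, changed the call of no member. Depth limits Cftr, Sox9 and Muc1, which had at most 24 counts per beta cell library; Cftr was at 0 in 5 of 8, so no fold is given for it between the beta cell fractions.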
